A study of Rattus norvegicus with 19 samples.

Results

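The urea cycle and amino acid breakdown genes described here are Cps1, Otc, Ass1, Asl, Arg1, Hal, Uroc1, Hpd and Gls2, measured in livers of adult rats given pregnenolone-16α-carbonitrile (PCN) or corn oil. Every probe set annotated to exactly one of these 9 genes was taken, which gave 10 of the 15866 non-control probe sets of the first Affymetrix array type and 0 of the 15276 of the second. The 10 probe sets stood for 8 of the 13810 genes measured in all, because Uroc1 was matched by none and was not analysed here. Members were therefore compared on the first array type alone.

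The PCN group received 100 mg/kg of PCN, a man-made steroid and rodent agonist of the pregnane X receptor, in a single intraperitoneal dose, and the control group received its corn oil vehicle by the same route. All animals had been fasted overnight, so the controls were fasted too, and livers were taken 8 h after dosing. The first array type had 5 PCN and 5 corn oil arrays, labelled as biological replicates, and the second had 5 PCN and 4 corn oil arrays. The labels used here give no strain or sex. The study asked whether PCN acts on liver genes beyond drug metabolism.

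The urea cycle converts the ammonia released by amino acid breakdown into urea, which the kidney excretes. It runs in hepatocytes, mostly those around the portal vessels, first in the mitochondrion (Cps1 and Otc) and then in the cytosol (Ass1, Asl and Arg1). Hal, Uroc1, Hpd and Gls2 belong to the breakdown of histidine, tyrosine and glutamine. Fasting, glucagon and glucocorticoids are known to raise many of these enzymes in rodent liver.

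Of the 10 member probe sets, that of Hal was lower after PCN and the other 9 did not pass the test. A probe set was called where its adjusted p in limma, a linear model fitted to all 11106 tested probe sets of the array type, was below 0.05. Among all tested probe sets 2.31% were called higher and 0.945% lower. Of the 10 member probe sets 8 had a negative log2 fold change, PCN over corn oil, with a median of -0.10, against a median near 0 (5.5e-05) over all tested probe sets, of which 49.98% were negative. The members' median was -0.04 without corn oil replicate 3 and with array spread as a covariate, and -0.06 without PCN replicate 3 or corn oil replicate 4, so its size rests on single arrays. It was -0.18 when arrays were aligned by the probe sets shared between types, which also moved the median of all tested probe sets to -0.08. All 10 lay above the filter on dim probe sets (a mean log2 level of 6.67), so none was left untested. A lower liver signal can mean fewer cells of a type or less RNA per cell, which bulk tissue cannot tell apart.

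**Figure D1:**
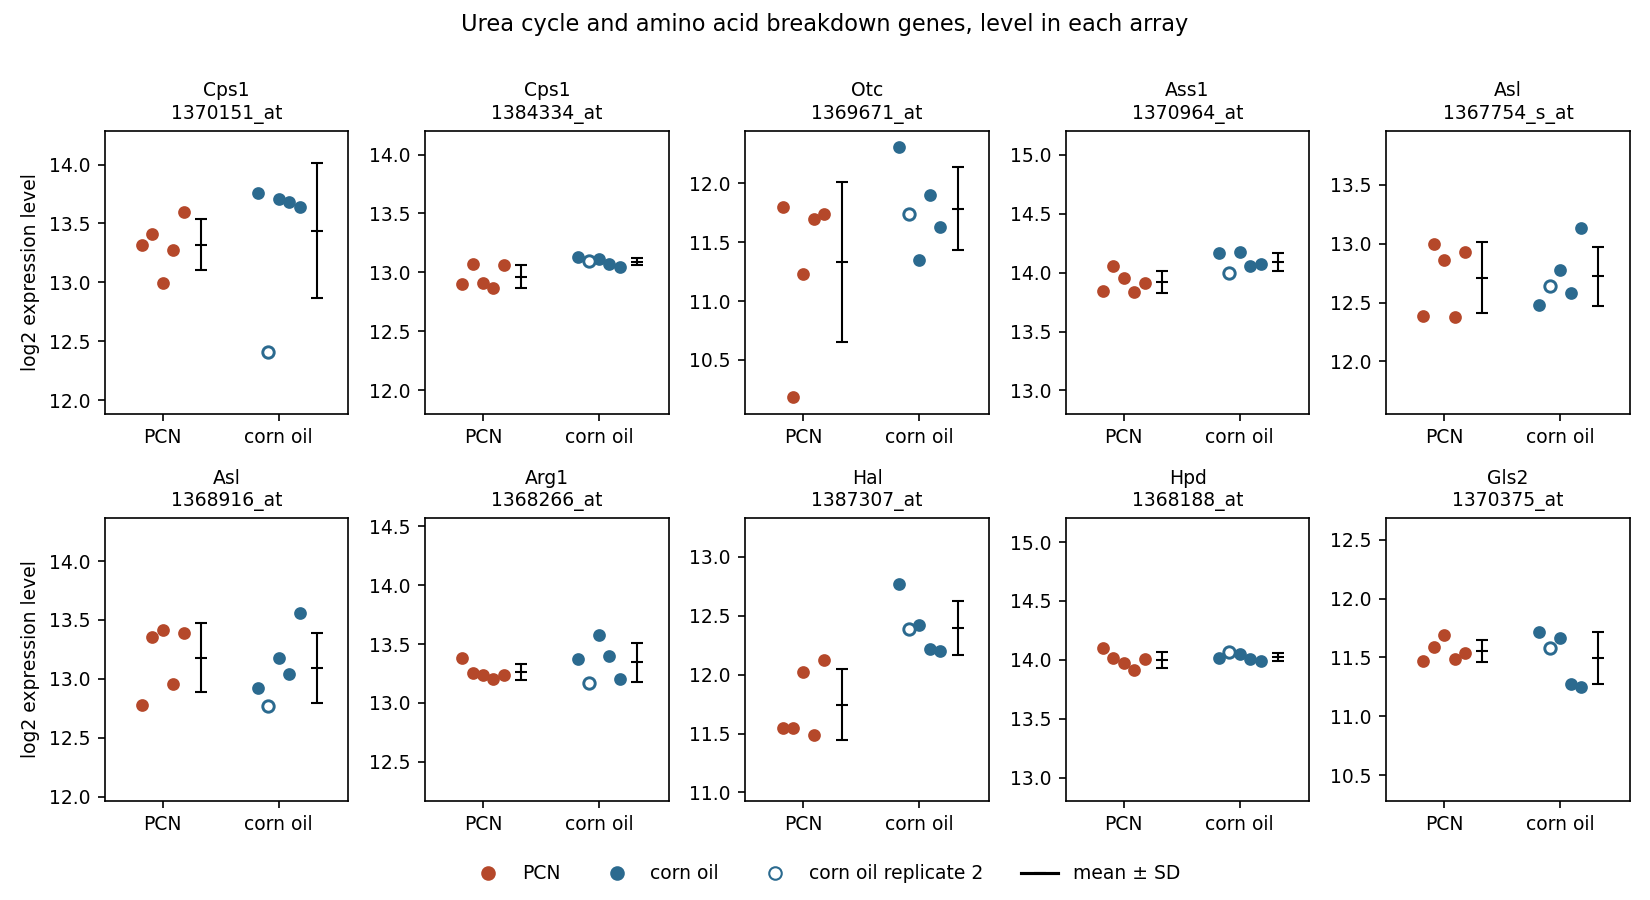
Log2 expression level (vertical axis, with the same span of log2 units in each panel) of the 10 member probe sets in each PCN (red) and corn oil (blue) array of the first type, with the mean ± SD at the right of each group. Hal shows no overlap between the groups, and corn oil replicate 2 (open circle) lies at 12.41 for 1 probe set of Cps1 and within its group for the other.

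Corn oil replicate 2 stood apart from the other arrays of the first type. Its mean correlation with them was 0.976, against 0.983 to 0.989 for the other 9. By Dixon's test 737 tested probe sets, or 6.64%, had this array as the outlying one of its group, against 0.468% to 2.68% for the others. The SD over all probe sets of an array, a measure of its spread, ran from 1.92 to 2.06 in PCN and from 1.93 to 2.003 in corn oil. The hepatocyte markers Alb, Apoa1, Ttr, Serpina1, Fgb and Apob were measured, and their summed signal was 16.90 to 17.06 (log2) in PCN and 16.93 to 17.01 in corn oil. Markers of stellate cells and fibroblasts summed to 12.08 to 12.35 in PCN and 11.67 to 12.09 in corn oil, and those of red cells to 13.62 to 14.28 in PCN and 14.10 to 14.45 in corn oil. Endothelial markers summed to 11.85 to 12.06 in PCN and 11.93 to 12.39 in corn oil, and neutrophil markers to 7.59 to 8.62 in PCN and 7.31 to 7.74 in corn oil. The neutrophil sum came from 2 genes, S100a8 and S100a9, of which 1 was tested. Kupffer cell and macrophage markers summed to 12.44 to 13.07 in PCN and 12.53 to 12.80 in corn oil. Sums of cholangiocyte, lymphocyte and kidney markers in PCN lay within the corn oil range. Of the measured markers, 2 of 4 for cholangiocytes, 2 of 6 for lymphocytes and 1 of 3 for kidney were tested. Limma called 0 of the tested genes in each of these marker lists, and the part of the markers in the results was not tested.

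Hal encodes histidase, which removes ammonia from histidine as the first step of its breakdown. Its levels were 11.54, 11.55, 12.02, 11.49 and 12.12 in PCN livers, against 12.77, 12.39, 12.42, 12.21 and 12.20 in corn oil livers. Every PCN value was below every corn oil value, with PCN replicates 3 and 5 closest to the controls. The groups failed to overlap in this direction for 2.05% of all tested probe sets. Hal averaged 11.74 ± 0.30 in PCN and 12.40 ± 0.23 in corn oil (SD, n = 5 each), a 1.57-fold fall (log2 fold change -0.65 ± 0.15 SE, 95% interval -0.98 to -0.33, adjusted p = 0.0356, limma).

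The size of this fall varied little when single arrays were left out, but its call did not hold in most such fits. The log2 fold change ranged from -0.75 without PCN replicate 5 to -0.56 without corn oil replicate 1. Leaving out a PCN array gave an adjusted p above the threshold for replicate 1 (0.095), replicate 2 (0.0618) and replicate 4 (0.0948). Leaving out a corn oil array did so for replicate 1 (0.0628), replicate 3 (0.0781), replicate 4 (0.0638) and replicate 5 (0.0525). Without corn oil replicate 2, the array that stood apart, it was 0.0497, and with array spread as a covariate the log2 fold change was -0.73 (adjusted p = 0.0339, limma).

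**Figure D2:**
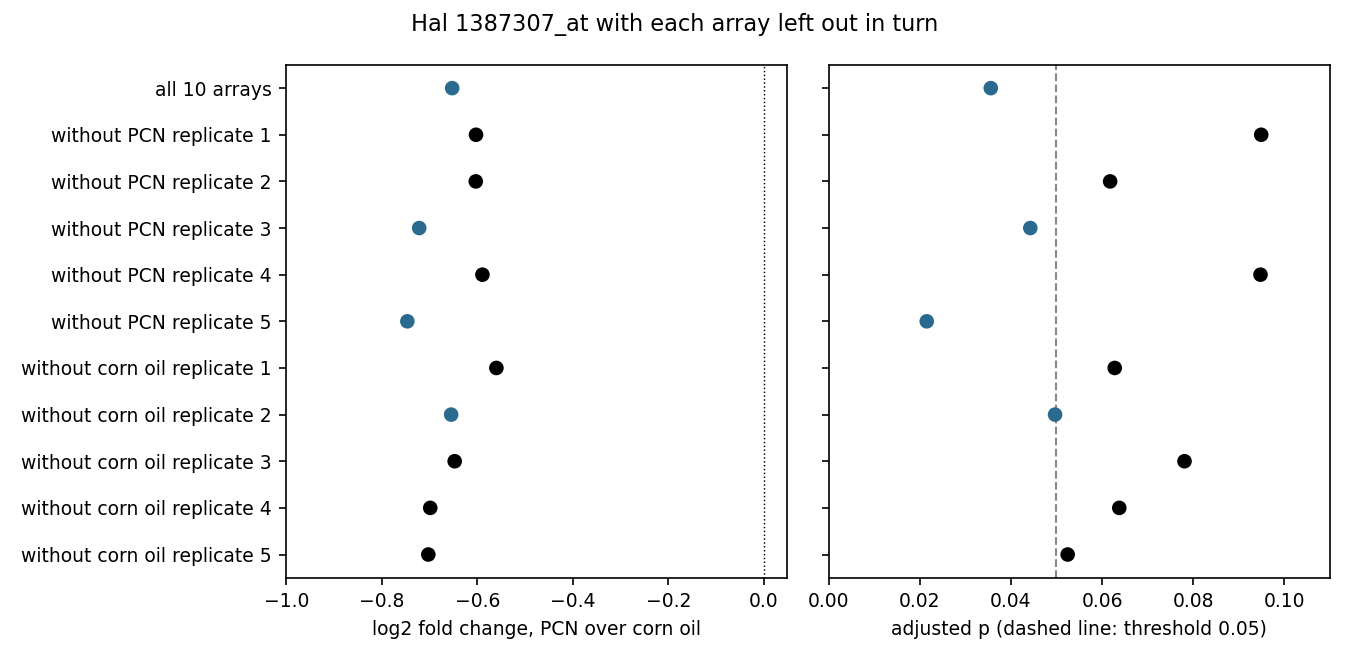
Log2 fold change of Hal, PCN over corn oil (left), and its adjusted p (right) with all 10 arrays and with each array left out in turn; blue points pass the threshold of 0.05. All log2 fold changes lie between -0.75 and -0.56, while 7 of the 10 reduced fits have an adjusted p above the threshold.

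Cps1, the mitochondrial enzyme that fixes ammonia as carbamoyl phosphate and sets the entry into the urea cycle, was read by a pair of probe sets. By 1370151_at its levels were 13.32, 13.41, 12.998, 13.27 and 13.59 in PCN, against 13.76, 12.41, 13.71, 13.68 and 13.64 in corn oil. Corn oil replicate 2 read 2.44-fold below the mean of the other corn oil arrays, and it alone made the groups overlap. Over all arrays the log2 fold change was -0.12 ± 0.23 (SE, adjusted p = 0.824, limma). Without corn oil replicate 2 it was -0.38 ± 0.10 (SE, adjusted p = 0.0609, limma). With any other single array left out it lay between -0.19 (lacking PCN replicate 5) and -0.04 (lacking PCN replicate 3 or corn oil replicate 1). It was -0.0060 with array spread as a covariate (adjusted p = 0.995, limma) and -0.29 with array weights (adjusted p = 0.192).

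The other Cps1 probe set, 1384334_at, did not show the low value in corn oil replicate 2. It read 12.90, 13.07, 12.91, 12.87 and 13.07 in PCN, against 13.13, 13.10, 13.11, 13.07 and 13.05 in corn oil. PCN replicates 2 and 5 lay in the lower part of the control range, and the other PCN arrays were below it. Its log2 fold change was -0.13 ± 0.06 (SE, 95% interval -0.26 to 0.0019, adjusted p = 0.289, limma), and -0.13 (adjusted p = 0.302) without corn oil replicate 2. Both probe sets of Cps1 thus had negative log2 fold changes that did not pass the test.

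Otc, which joins carbamoyl phosphate to ornithine to give citrulline, had the widest range of levels of the members over the arrays. Its levels were 11.80, 10.18, 11.23, 11.69 and 11.74 in PCN, against 12.30, 11.74, 11.35, 11.90 and 11.63 in corn oil. PCN replicate 2 was the lowest array by about a log2 unit, and the other PCN values fell within or just below the control range. The log2 fold change was -0.46 ± 0.29 (SE, adjusted p = 0.449, limma), with a 95% interval of -1.08 to 0.17, and it was -0.17 without PCN replicate 2 (adjusted p = 0.604). With array spread as a covariate it was -0.71 (adjusted p = 0.134, limma), and -0.86 when corn oil replicate 2 was also left out (adjusted p = 0.106). With array weights it was -0.21 (adjusted p = 0.569).

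Ass1, which condenses citrulline with aspartate, came nearest to the threshold among the other urea cycle genes. It read 13.84, 14.06, 13.95, 13.83 and 13.92 in PCN, against 14.16, 13.99, 14.17, 14.06 and 14.07 in corn oil. PCN replicate 2 lay within the control range, and the other PCN arrays were below it. The mean was 13.92 ± 0.09 in PCN and 14.09 ± 0.08 in corn oil (SD, n = 5 each), a log2 fold change of -0.17 ± 0.06 (SE, 95% interval -0.29 to -0.05). Its unadjusted p was 0.0107 and its adjusted p 0.132 (limma), and with array weights, which give less weight to arrays that deviate, the adjusted p was 0.0254.

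Asl, which splits argininosuccinate into arginine and fumarate, was also read by a pair of probe sets. By 1368916_at it read 12.78, 13.35, 13.42, 12.96 and 13.39 in PCN, against 12.92, 12.77, 13.17, 13.04 and 13.56 in corn oil. By 1367754_s_at it read 12.39, 12.995, 12.86, 12.38 and 12.93 in PCN, against 12.48, 12.64, 12.78, 12.58 and 13.13 in corn oil. In both, the highest array was corn oil replicate 5, and PCN replicates 2, 3 and 5 lay above PCN replicates 1 and 4, so the groups overlapped widely.

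The log2 fold changes of Asl were 0.09 ± 0.16 and -0.01 ± 0.15 (SE, adjusted p = 0.819 and 0.977, limma). Their 95% intervals, -0.26 to 0.43 and -0.34 to 0.32, both include 0. The annotation gives 1367754_s_at to Asl, but the transcript accession it lists for that probe set belongs to Hnrnpab, an RNA-binding protein gene, in RefSeq. The assignment of that probe set is therefore uncertain.

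Arg1, the liver arginase that releases urea, read 13.38, 13.26, 13.24, 13.21 and 13.24 in PCN, against 13.38, 13.17, 13.57, 13.40 and 13.21 in corn oil. The PCN arrays lay close together, inside the control range. The log2 fold change was -0.08 ± 0.08 (SE, 95% interval -0.25 to 0.09, adjusted p = 0.641, limma).

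Hpd, the hydroxyphenylpyruvate dioxygenase of tyrosine breakdown, had the narrowest interval of the members. It read 14.10, 14.01, 13.97, 13.91 and 14.00 in PCN, against 14.02, 14.07, 14.05, 14.00 and 13.99 in corn oil. The groups overlapped throughout. Its log2 fold change was -0.03 ± 0.05 (SE), and the interval of -0.13 to 0.07 leaves room for a change of at most 1.09-fold downward (adjusted p = 0.815, limma).

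Gls2, the liver-type glutaminase that frees ammonia from glutamine, read 11.47, 11.59, 11.69, 11.48 and 11.54 in PCN, against 11.72, 11.58, 11.67, 11.27 and 11.25 in corn oil. All PCN arrays lay within the control range, whose lower end was set by corn oil replicates 4 and 5. The log2 fold change was 0.06 ± 0.11 (SE, 95% interval -0.18 to 0.29, adjusted p = 0.825, limma).

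**Figure D3:**
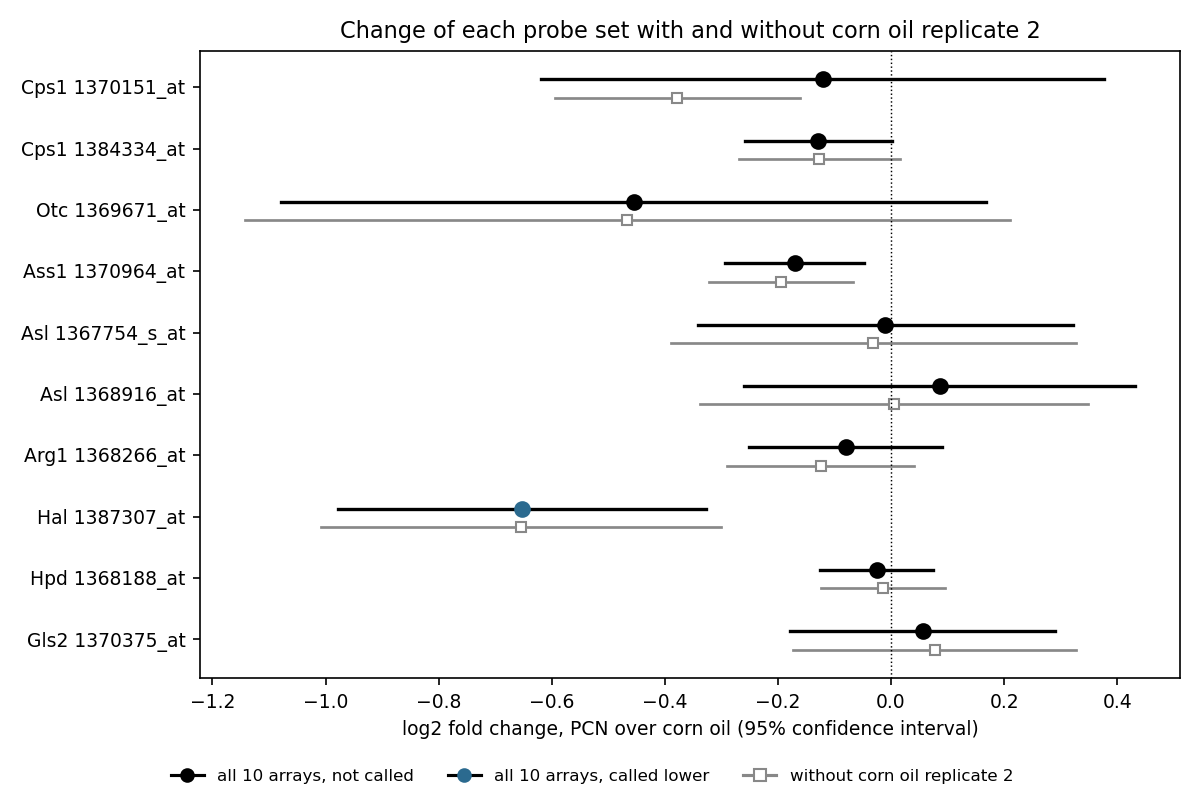
Log2 fold change, PCN over corn oil, of each member probe set with its 95% confidence interval (horizontal axis), over all 10 arrays (filled circles) and without corn oil replicate 2 (open squares). Hal (blue) is the called member, and 1370151_at of Cps1 moves from -0.12 to -0.38 when that array is left out.

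For each member the other gene whose levels followed it most closely over the 10 arrays was found among 9384 or 9385 single-gene probe sets. Each partner had the highest correlation of all those compared, over only 10 arrays. The correlation that unrelated probe sets reach in such a search was not measured, so no shared regulation can be read from these values. For Cps1 (1370151_at) and Otc, 1 array lay far from the others, corn oil replicate 2 at 12.41 and PCN replicate 2 at 10.18. The partners are listed as a description only. Hal was most like Synj2bp (Pearson's r = 0.973), an outer mitochondrial membrane protein, whose log2 fold change was -0.32 (adjusted p = 0.134, limma). Arg1 was most like another probe set of Synj2bp (r = 0.924). Otc was most like Ndufa4, a respiratory chain protein (r = 0.964), and Asl was most like Nbn, a DNA repair gene (r = 0.959). For Cps1 it was Tmem30a (r = 0.939), for Ass1 Pja1 (r = 0.942), for Gls2 Pde4dip (r = 0.939) and for Hpd Sash1 (r = 0.917). None of these partners passed the test in limma, with adjusted p values from 0.134 to 0.879.

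Beyond the members, 9 lists of related genes were counted on each array type, with each gene read by its brightest tested probe set. On the second array type 3.76% of all tested probe sets were called higher and 1.64% lower. Counts at an unadjusted p below 0.05 (limma), given below per list, stand beside 1964 of all 11106 tested probe sets on the first type. On the second they stand beside 2919 of 10693. The share of calls that were higher depended on scaling. It was 70.9% on the first array type, and 59.3% after scaling to a trimmed mean, 57.7% after quantile normalization and 45.9% when arrays were aligned by the 100 shared probe sets. On the second it was 69.7%, and 87.8%, 45.4% and 3.23% after scaling to a common median, to a trimmed mean and by the shared probe sets, the last of which shifted the overall median to -0.31.

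The genes that feed and support the urea cycle (mitochondrial carriers, the carbonic anhydrase, glutamate and glutamine enzymes, aminotransferases) had 12 tested on the first array type, of which limma called 0 (2 at an unadjusted p below 0.05). On the second, 1 of 4 rose and 1 fell. The array spread on that type was 1.48 to 1.56 in PCN and 1.45 to 1.49 in corn oil, and with it as a covariate limma called 0 of all 10693 tested probe sets (881 at an unadjusted p below 0.05). Spread nearly separated the treatments on that type, so an effect of PCN and a difference in spread cannot be told apart there. In that fit the log2 fold changes were 0.35 for Slc25a13 (adjusted p = 0.601, limma), -0.37 for Gpt2 (0.675) and -0.63 for Ppargc1a (0.448), described with the regulators. Slc25a13, the mitochondrial carrier that supplies aspartate to Ass1, read 11.99, 11.81, 11.76, 11.88 and 11.77 in PCN, against 11.22, 11.26, 11.33 and 11.58 in corn oil. The groups did not overlap, though the share of all probe sets of this type that did so was not counted. The log2 fold change was 0.50 ± 0.10 (SE, adjusted p = 0.025, limma).

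Another probe set of Slc25a13, on the first array type, gave 0.11 ± 0.13 (SE, adjusted p = 0.71, limma; 95% interval -0.17 to 0.39, against 0.27 to 0.72 on the second). The difference between these probe sets was not tested. The call on the second type was kept without PCN replicates 3 or 5 or corn oil replicate 5 and lost without any of the other 6 arrays, the adjusted p reaching 0.0796 when corn oil replicate 4 was left out. It was also lost when arrays were aligned by the shared probe sets, where the log2 fold change was 0.22, and after cyclic loess (0.16). The replicate block (adjusted p = 0.0966, limma) and the unmoderated test (0.0696) lost it too. Gpt2, a mitochondrial alanine aminotransferase, fell by 0.58 ± 0.13 (SE, log2, adjusted p = 0.0328, limma). Its levels were 9.55, 9.31, 9.20, 9.32 and 9.70 in PCN, against 10.18, 10.08, 10.07 and 9.65 in corn oil. Of the fits lacking 1 array, its call was kept only without PCN replicate 5 or corn oil replicate 5 (up to 0.0997, without corn oil replicate 4). The Gpt2 call was also lost with the replicate block (0.112) and in the unmoderated test (0.109).

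Glud1, the glutamate dehydrogenase that releases ammonia in the mitochondrion, was singled out after its values were seen, because its probe sets fell on either side of the threshold. By 1370200_at it read 12.19, 11.97, 12.27, 11.97 and 12.35 in PCN, against 12.62, 12.78, 12.96, 12.91 and 12.70 in corn oil. All PCN values were below all corn oil values, as for 2.05% of all tested probe sets, with a log2 fold change of -0.65 ± 0.10 (SE, adjusted p = 0.00476, limma). The brighter probe set, 1387878_at, annotated to the same transcript accession, gave -0.26 ± 0.10 (SE, adjusted p = 0.199).

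Among the other genes of histidine breakdown, 3 were tested and limma called 0 (1 at an unadjusted p below 0.05). That one was Hdc, which makes histamine from histidine and is mainly a gene of mast cells and basophils. It read 8.36, 8.68, 9.81, 7.82 and 8.98 in PCN, against 8.04, 7.57, 8.30, 7.84 and 8.14 in corn oil, with PCN replicate 3 the highest. Its log2 fold change was 0.75 ± 0.30 (SE, adjusted p = 0.208, limma).

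Of 6 other genes of phenylalanine and tyrosine breakdown 3 had an unadjusted p below 0.05 (limma) and 1 rose. This was Gch1, which makes the pterin cofactor of phenylalanine hydroxylase. It read 11.55, 11.77, 11.24, 11.89 and 11.69 in PCN, against 11.03, 11.16, 10.71, 11.002 and 11.03 in corn oil. Every PCN value exceeded every corn oil value, though the share of all probe sets separated in this direction was not counted. The log2 fold change was 0.64 ± 0.13 (SE, adjusted p = 0.0209, limma), while another Gch1 probe set gave 1.14 ± 0.21 (adjusted p = 0.0156). The call of the brighter one was lost without PCN replicate 4 (0.0532) or corn oil replicate 4 (0.0542), and in the unmoderated test (0.0772). On the second array type limma called 0 of 1 gene of this list (1 at an unadjusted p below 0.05).

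Of 9 genes of tryptophan breakdown 4 had an unadjusted p below 0.05 (limma) and 1 fell, Kynu, the kynureninase. It read 10.26, 10.96, 10.71, 9.94 and 10.81 in PCN, against 10.85, 11.66, 12.20, 11.70 and 11.42 in corn oil. Corn oil replicate 1 was the control that overlapped with PCN. The log2 fold change was -1.03 ± 0.24 (SE, adjusted p = 0.0436, limma), and the call was kept only without PCN replicate 2 or corn oil replicate 1 (up to 0.111, without PCN replicate 1). It was also lost with no filter (0.0515), with robust eBayes (0.0503), in the unmoderated test (0.135), with array spread as a covariate (0.0724, or 0.152 lacking corn oil replicate 2 too) and after quantile normalization lacking that array (0.0646).

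Limma called 0 of 15 genes of serine, glycine, threonine and proline breakdown (6 at an unadjusted p below 0.05) and 0 of 21 of branched-chain amino acid and lysine breakdown (3 at an unadjusted p below 0.05). The smallest p in the first of these lists was that of Dao, the D-amino acid oxidase, which averaged 8.56 ± 0.51 in PCN and 9.64 ± 0.60 in corn oil (SD, n = 5 each; log2 fold change -1.08 ± 0.30 SE, adjusted p = 0.0697, limma). In the other it was that of Bcat2, the mitochondrial branched-chain aminotransferase, at 7.34 ± 0.15 in PCN and 6.98 ± 0.14 in corn oil (0.36 ± 0.09 SE, adjusted p = 0.0583). When single arrays were left out, Dao passed the threshold in the fit lacking corn oil replicate 1 (0.0269), and Bcat2 in that lacking replicate 5 (0.0498). Of the other alternatives Dao passed in 2 of 16, the shared probe sets (0.0431) and array weights (0.0371). Bcat2 passed in 5 of 15, among them quantile normalization (0.0272), cyclic loess (0.0237) and array spread (0.0232). On the second array type limma called 0 of 2 tryptophan genes (0 at an unadjusted p below 0.05), 0 of 4 of the serine group (1) and 0 of 4 of the branched-chain group (0). Over the 5 breakdown lists on the first type 42 of 54 genes had a negative log2 fold change, with a median of -0.11, against 49.98% of all tested probe sets. The count was 33 with array weights (median -0.06), 35 when PCN replicate 2 was left out (-0.05), 35 when corn oil replicate 1 was (-0.07), and up to 46 with array spread and no corn oil replicate 2 (-0.20).

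**Figure D4:**
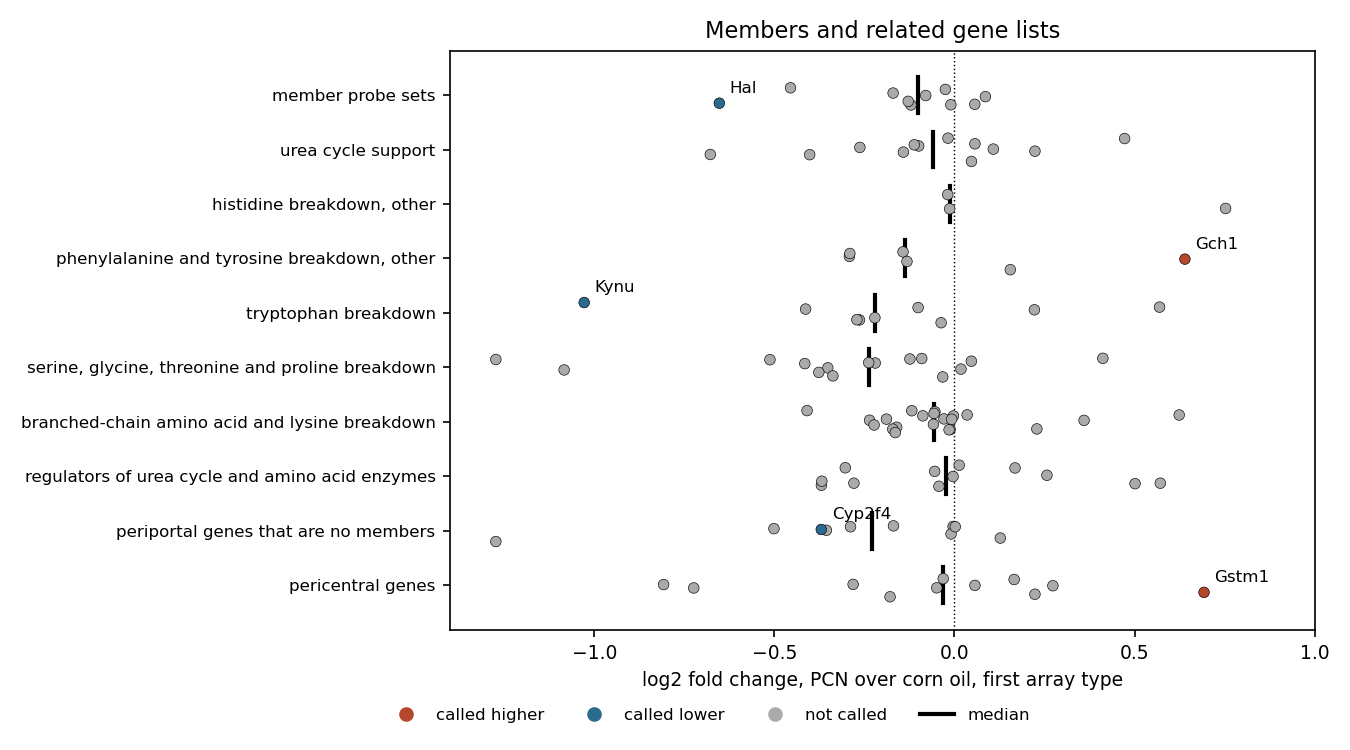
Log2 fold change, PCN over corn oil (horizontal axis), of the member probe sets and of the genes of 9 related lists on the first array type, 1 point per probe set or gene, with the median as a bar. Called genes are named, and the members' median is -0.10.

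Of 12 regulators of these enzymes tested on the first array type limma called 0 (4 at an unadjusted p below 0.05). On the second, 1 of 4 fell. This was Ppargc1a, a coactivator that drives fasting responses in liver, at 7.06, 7.30, 6.98, 7.08 and 7.28 in PCN, against 7.28, 7.82, 7.88 and 7.90 in corn oil. Corn oil replicate 1 lay among the PCN values. The log2 fold change was -0.58 ± 0.13 (SE, adjusted p = 0.0285, limma), and -0.73 (adjusted p = 0.00655) without corn oil replicate 1. The call was lost without PCN replicates 1, 3 or 4 or corn oil replicates 3, 4 or 5 (up to 0.093, without corn oil replicate 4), and in the unmoderated test (0.11).

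Since most members are enzymes of periportal hepatocytes, genes of both liver zones were counted beside them. Some had already been counted above: Sds (serine group) and Gcgr (regulators) were among the periportal genes. Glul and Oat (urea cycle support) were among the pericentral ones. Of 10 other periportal genes 5 had an unadjusted p below 0.05, as did 2 of 11 pericentral genes (limma). The periportal list had 1 gene that fell, Cyp2f4, whose mouse counterpart marks periportal cells. It averaged 9.79 ± 0.10 in PCN and 10.16 ± 0.08 in corn oil (SD, n = 5 each), a log2 fold change of -0.37 ± 0.09 (SE, adjusted p = 0.0377, limma), and its call was lost without any single array (0.0501 to 0.093). A common median (0.0553), the replicate block (0.101) and array spread without corn oil replicate 2 (0.0575) also lost that call. The median of that list was -0.23 (-0.31 to -0.17 over the alternatives beside single arrays). Of 11 pericentral genes 1 rose, Gstm1, a glutathione transferase, at 13.82 ± 0.16 in PCN and 13.12 ± 0.14 in corn oil (0.69 ± 0.09 SE, adjusted p = 0.00193), and the median was -0.03 (-0.11 to 0.0079, turning sign with array spread). Probe sets of the Gstm family can share targets, so that value may hold signal of its close relatives. On the second array type limma called 0 of 1 periportal gene (1 at an unadjusted p below 0.05) and 0 of 1 pericentral gene (0). The lowest median of both zone lists came with the shared probe sets, which moved that of all tested probe sets to -0.08. Whether the zones differ was not tested.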

How the data were processed

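Per the submitters' processing notes the values were made with MAS5, whose version is not given, and the summarization and normalization behind them are not given in the sources used here. The authors deposited log2 values per probe set (4.31 to 15.2 on the first array type, 3.10 to 14.1 on the second), with base 2 inferred from that range. They were analysed as deposited, each array type alone, and the number of arrays limits the precision. Probe sets were named from GEO's platform annotation, with symbols updated by gene identifier to RefSeq (GRCr8), and 12783 of the 15866 on the first array type had 1 gene. The 57 control probe sets and those below the 30th percentile of mean level were left out. limma 3.58.1 in R 4.3.3 (treatment alone, eBayes with an intensity trend) gave two-sided p-values, Benjamini-Hochberg adjusted over 11106 and 10693 probe sets, and the code was tested on simulated data. Members, lists and tests were chosen with earlier results of these data known. Every member was named, with the up to 4 called genes of largest change per list and array type, or, in a list with no call on either type, the gene of lowest p on the first. Alternatives were other scalings, filters, variance models, a pseudocount of 16, the replicate number as a block and leaving out each array, and, chosen after seeing the data, array spread as a covariate, and that or quantile normalization without corn oil replicate 2. The labels call the replicates biological but name no animals, so p-values rest on the spread between these samples.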

Additional observations from a re-analysis of the deposited data

Results flagged for a closer look

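Dixon's test was applied to each group of the 10 member probe sets and the 10 probe sets of the genes named from the lists, 40 groups in all. With normally distributed values chance would single out about 1 in 20. Corn oil replicate 2 alone was the outlying array for 6.64% of all tested probe sets of the first type, above that rate. Among the 40 groups the test picked out 3 arrays. Cps1 by 1370151_at was at 12.41 for corn oil replicate 2, where the remaining 4 controls gave 13.64 to 13.76. Arg1 read 13.38 in PCN replicate 1 and 13.21 to 13.26 in the other 4 PCN arrays. Ppargc1a was at 7.28 for corn oil replicate 1 of the second array type, where the remaining 3 controls gave 7.82 to 7.90.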

How the results depend on the processing

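The count of called member probe sets was 1 under the other settings, but 0 with the replicate block, 0 in an unmoderated test and 2 with array weights (Hal and Ass1), and 0 to 1 when single arrays were left out. Calls over all 11106 tested probe sets moved likewise, at 256 higher and 105 lower in the reported fit, 768 and 283 with array weights, 177 and 62 with the replicate block and 77 and 27 unmoderated. Whether replicate numbers pair the samples is not known. The deviations of same-numbered arrays had correlations of -0.30 to 0.28 on the first array type and 0.02 to 0.20 on the second. With 5 and 4 pairs these cannot show that pairing is absent. The adjusted p of Hal was 0.0759 with the replicate block and 0.113 unmoderated (limma fits). The fold change of Hal stayed between -0.77 and -0.57 over the 16 alternatives beside single arrays. Signs turned for members near 0, namely Gls2 (-0.0231, centring on the common probe sets), 1368916_at of Asl (-0.0816) and Hpd (0.0090) with array weights, 1367754_s_at of Asl with array spread as a covariate (0.10, or 0.11 without corn oil replicate 2) and Hpd with both (0.0061). With single arrays left out, 1367754_s_at ranged from -0.0811 to 0.0925 and Gls2 from -0.0057 to 0.11. List genes called on the first array type numbered 4, against 8 after a trimmed mean, 9 after quantile normalization (9 also without corn oil replicate 2), 10 after cyclic loess, 13 on the common probe sets, 13 with array weights, 9 with array spread, 2 unmoderated and 1 to 4 without single arrays. Over all 11106 probe sets, calls higher and lower were 256 and 176 after a trimmed mean and 247 and 181 after quantile normalization. They were 270 and 168 after cyclic loess, 214 and 252 on the common probe sets and 226 and 192 with array spread. In these settings the list counts rose more in proportion than the calls over the whole array. On the second array type the list genes called numbered 3, against 9 on the common probe sets, 1 with the replicate block, 0 unmoderated, 0 with array spread and 0 to 3 without single arrays. Over all 10693 probe sets of that type 402 were higher and 175 lower in the reported fit, 210 and 6283 on the common probe sets, 163 and 40 with the replicate block, 25 and 21 unmoderated and 0 with array spread (881 at an unadjusted p below 0.05, limma). On that type the list counts thus moved in the same direction as those of the whole array. The median of the other histidine genes was 0.18 with array weights and -0.01 in the reported fit. The second array type holds no member probe set and gave no value for them. The cause of these differences was not tested.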

Other observations

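A pair of genes beside the members was singled out after their values were seen. Car5a, the mitochondrial carbonic anhydrase that supplies bicarbonate to Cps1, read 9.47, 8.97, 9.69, 9.67 and 9.82 in PCN, against 10.56, 10.67, 9.80, 10.13 and 9.85 in corn oil. Its highest PCN value lay just above the lowest control, and its log2 fold change was -0.68 ± 0.20 (SE, adjusted p = 0.0981, limma, n = 5 each). Sds, the serine dehydratase that frees ammonia from serine, read 8.63, 10.07, 9.77, 8.93 and 10.79 in PCN, against 11.02, 10.50, 11.51, 9.48 and 12.05 in corn oil. It varied over more than 2 log2 units within each group, and its log2 fold change of -1.27 ± 0.49 (SE) did not pass the test (adjusted p = 0.192).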
